A study of Mus musculus with 12 samples.

Results

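The glycolysis enzymes described here are 10 genes chosen by symbol, Hk2, Gpi1, Aldoa, Tpi1, Gapdh, Pgk1, Pgam1, Eno1, Pkm and Ldha, from a table of 24493 gene symbols. They encode an enzyme of each step from glucose to lactate, apart from phosphofructokinase, which is described with the genes around the pathway. All 10 passed the filter on low values that left 13662 genes to test. RNA was sequenced from 12 libraries of 6649c2 mouse pancreatic tumour cells, 3 for each of the genotype labels EgfrKO, Klf5KO, Smad4KO and WT. Every group shared the C57BL/6 strain label, growth as a subcutaneous tumour and sorting of the tumour cells before RNA extraction. EgfrKO, Klf5KO and Smad4KO name a knockout of the epidermal growth factor receptor, of a zinc finger transcription factor and of the common SMAD that carries TGF-beta and BMP signals to the nucleus. No age, no treatment, no sorting gate and no statement on clones or pools was found in the labels, so a difference between clones and an effect of a knockout cannot be told apart. Nor do they say whether replicates were separate tumours, so the p-values measure the spread between these libraries, which may be technical.

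Glycolysis converts glucose to pyruvate in the cytosol and yields ATP and NADH without oxygen. Hexokinase traps glucose in the cell, aldolase splits the sugar into trioses, and the enzymes from glyceraldehyde phosphate dehydrogenase to pyruvate kinase recover ATP. Lactate dehydrogenase then turns pyruvate into lactate and regenerates NAD+. Pancreatic tumours are known for high glycolysis and for low oxygen, and most of these genes are textbook targets of the hypoxia-inducible factors (HIF) and of Myc.

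Levels are given as transcripts per 1000000 (TPM), a share of all transcripts in a library after allowing for transcript length. The deposited values hold no read depth, so each library's depth is unknown and no counting interval can be given. Between 12592 and 13141 genes reached 1 TPM in a library. Egfr averaged 4.29 ± 0.76 TPM in EgfrKO libraries and 13.1 ± 0.85 TPM in WT libraries (SD, n = 3 each), and Smad4 averaged 30.7 ± 2.39 TPM in Smad4KO libraries and 75.5 ± 4.45 TPM in WT libraries. Klf5 ranged from 82.5 to 89.0 TPM in EgfrKO libraries and from 87.8 to 100.5 TPM in the libraries labelled Klf5KO, against 97.1 to 130.3 TPM in WT libraries. In Klf5KO it fell by -0.25 (limma adjusted p = 0.041) with overlapping ranges, so its level does not check the label, and Klf5KO below means the libraries so labelled. Epithelial marker genes summed to 7341 to 7844 TPM in EgfrKO, 4579.8 to 5112 in Klf5KO, 7847 to 8814 in Smad4KO and 5426 to 5884 in WT libraries, and most of that sum came from the keratins Krt8, Krt18 and Krt19. Of the 7 such markers tested, 4, 1 and 7 were called higher in EgfrKO, Klf5KO and Smad4KO against WT by limma. In the same comparisons 2, 5 and 0 were called lower. Over all genes tested the shares were 31.3%, 55.2% and 32.2% higher and 12%, 11.1% and 17.4% lower. The adhesion molecule Epcam averaged 1.30 TPM in EgfrKO, 0.54 in Klf5KO and 39.5 in Smad4KO, against 13.5 TPM in WT. Krt7 averaged 159, 5.07 and 133 TPM, against 61.6 TPM in WT, and Cldn4 was listed at 0 in some EgfrKO and Klf5KO libraries and reached 1.34 TPM in WT. The markers of the labelled epithelial cells were thus uneven between groups, and their part in the results was not tested. Macrophage genes were also present, at sums of 1416 to 1518, 1221 to 1881 and 416 to 1065 TPM in EgfrKO, Klf5KO and Smad4KO, against 918 to 1675 TPM in WT, and none of the 10 listed was at 0 in all libraries of a group.

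The glycolysis enzymes as a group were lower in each knockout label than in WT. The 10 transcripts together took 1.59% to 1.67% of all TPM in EgfrKO, 1.49% to 1.67% in Klf5KO and 1.38% to 1.48% in Smad4KO libraries, against 1.95% to 2.16% in WT libraries. In EgfrKO all 10 fell, in Klf5KO 9 fell and Eno1 did not pass the test, and in Smad4KO all 10 fell. None rose in any of the 3 comparisons by limma, whether at an adjusted p under 0.05 or at an unadjusted p under 0.05.

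Each count was read against the calls over all 13662 genes tested. Of these, 12% were called lower and 31.3% higher in EgfrKO, 11.1% lower and 55.2% higher in Klf5KO, and 17.4% lower and 32.2% higher in Smad4KO against WT (limma, Benjamini-Hochberg adjusted p under 0.05). The TPM of all 3 libraries lay below all 3 WT libraries for 10 of 10 enzymes in EgfrKO, where this held for 15.9% of all genes. It held for 9 of 10 enzymes in Klf5KO, against 11.9% of all genes, and for 10 of 10 in Smad4KO, against 20.8% of all genes. On the log2(TPM + 1) scale, where a difference of a gene with low values is understated, the median difference of the enzymes from WT was -0.39 in EgfrKO, -0.43 in Klf5KO and -0.52 in Smad4KO. The median over all genes was 0.14, 0.31 and 0.10 in the same comparisons, so most genes shifted the other way, and the split of calls depended on it. After median-of-ratios scaling, which removes that shift, 10 of 10 enzymes were called lower in each comparison, with medians of -0.54, -0.79 and -0.63. Of all 13662 genes 3029, 3755 and 3381 were then called lower and 2462, 3357 and 3427 higher, more lower calls than as deposited. Over all genes that scaling moved the share of calls that were higher to 44.8% in EgfrKO, 47.2% in Klf5KO and 50.3% in Smad4KO, from 72.2%, 83.2% and 64.9% as deposited. Quantile normalization called 9 lower in EgfrKO, 5 lower and 1 higher in Klf5KO, and 10 lower in Smad4KO, with medians of -0.41, -0.12 and -0.47. Of all 13662 genes it called 2766, 3151 and 3506 lower and 2510, 3685 and 3173 higher. The 3 comparisons share their WT libraries, so they are not independent of each other.

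**Figure D1:**
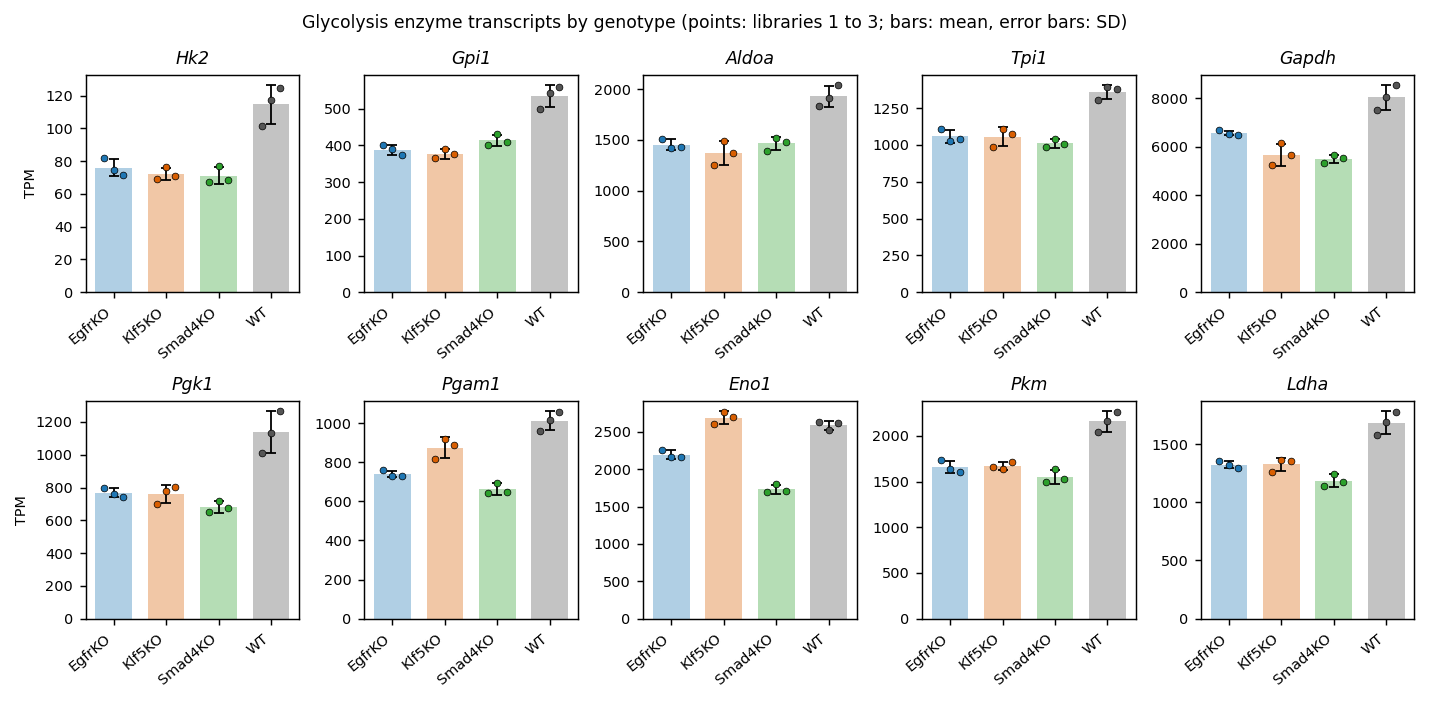
TPM of the 10 glycolysis enzymes in each genotype group, 3 libraries a group; points are libraries, bars are means and error bars are SD. WT libraries lie above every knockout library for each enzyme except Eno1, whose Klf5KO libraries reach 2598 to 2769 TPM beside 2521 to 2633 TPM in WT.

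**Figure D2:**
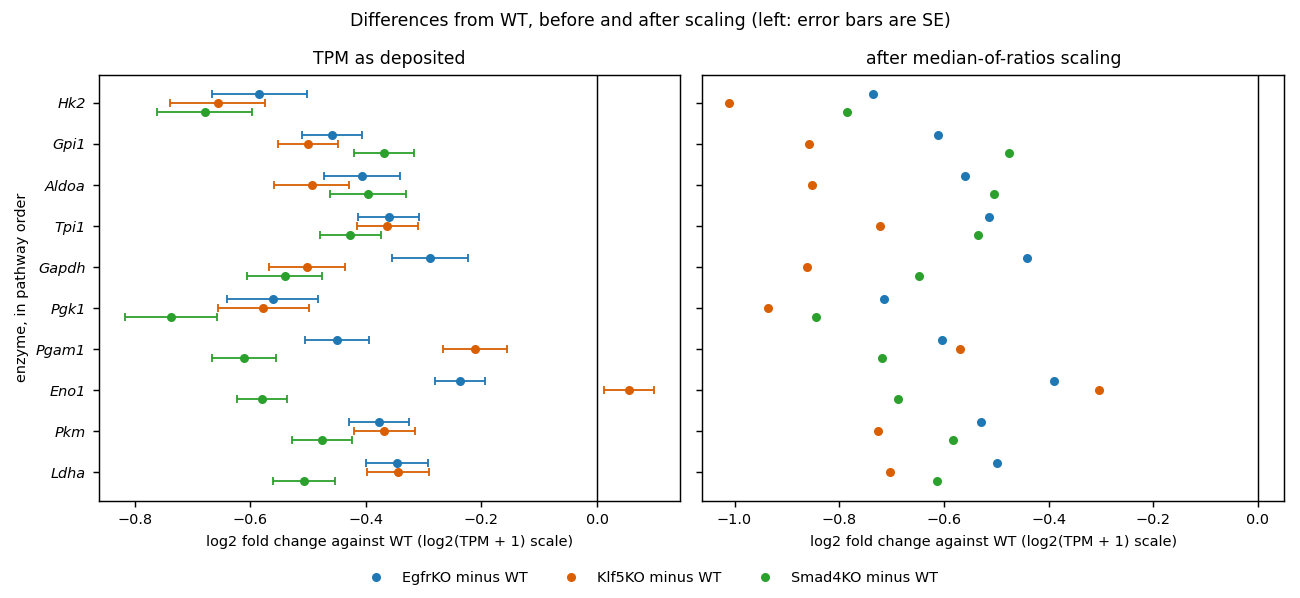
Log2 fold change of each enzyme against WT on the log2(TPM + 1) scale, from TPM as deposited (left, error bars are SE) and after median-of-ratios scaling (right). On the left Eno1 in Klf5KO is the only value above 0, and on the right all 30 values lie below 0.

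The promoters of 3 enzymes are shown because their genes fell in all 3 comparisons and hold the most copies of a short motif, ACGTG, the core letters that HIF binds. Each is given 5′ to 3′ on the gene's strand, from RefSeq on GRCm38.p6, with each match to ACGTG or its reverse complement CACGT in capitals. The windows are Ldha on chr7:46845634-46845799 (plus strand), Pgk1 on chrX:106186925-106186998 (plus strand) and Hk2 on chr6:82774477-82774704 (minus strand), each upstream of an annotated transcription start.
Ldha: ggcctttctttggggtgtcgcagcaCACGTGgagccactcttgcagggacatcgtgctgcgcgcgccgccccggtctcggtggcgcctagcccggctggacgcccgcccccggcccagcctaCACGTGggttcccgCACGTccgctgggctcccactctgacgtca
Pgk1: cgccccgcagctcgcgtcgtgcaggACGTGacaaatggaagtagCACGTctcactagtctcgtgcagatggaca
Hk2: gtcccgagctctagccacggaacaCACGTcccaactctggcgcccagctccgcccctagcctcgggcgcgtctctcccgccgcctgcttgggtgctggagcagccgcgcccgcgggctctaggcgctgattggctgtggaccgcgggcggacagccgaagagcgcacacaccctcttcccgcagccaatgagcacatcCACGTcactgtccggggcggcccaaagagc
In Ldha the capitals include 2 copies of CACGTG, the E-box that Myc and its partners bind, each of which counts as 2 overlapping matches, and 1 further CACGT, for 5 matches in all. Their first bases stand 145, 48 and 34 bases before the start. Pgk1 holds a match at 150 and at 131 bases before its start, and Hk2 at 226 and at 52. Within 250 bases upstream of any annotated start, Aldoa, Pgam1 and Pkm held 1 match each, while Gpi1, Tpi1, Gapdh and Eno1 held none in these windows. A match was thus present for 6 of 10 enzymes, against 24.4% of the 10387 tested genes with a promoter entry. For 3 of 10 there were 2 or more matches, against 11%, where a single CACGTG counts as 2. The motif holds the pair CG, and these shares were not matched for CG pairs or for the number of starts. The Ldha, Pgk1 and Hk2 windows held 25, 17 and 25 CG pairs. Gapdh, Tpi1 and Gpi1 held 8, 13 and 14, and the 3 Eno1 windows 9, 21 and 19. An excess of the motif was not tested. Matches are letters in a window, and the binding of a factor was not measured.

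The upper steps of the pathway fell in all 3 knockout labels. After median-of-ratios scaling Hk2, Gpi1, Aldoa and Tpi1 were each lower in Klf5KO than in EgfrKO and Smad4KO, as described with the direct comparisons. As deposited, only Gpi1 against Smad4KO was called among these. After quantile normalization Aldoa and Tpi1 were instead called higher in Klf5KO. Their log2 fold changes were then -0.26 and -0.30 for EgfrKO against Klf5KO, and 0.27 and 0.32 for Klf5KO against Smad4KO. Hk2, the hexokinase isozyme typical of tumours and muscle (chromosome 6, 82725025 to 82774454, GRCm38.p6), was the least abundant member. Its level was 81.7, 74.8 and 71.5 TPM in the EgfrKO libraries, 69.3, 76.5 and 70.7 TPM in Klf5KO and 67.5, 77.1 and 68.7 TPM in Smad4KO, against 101.7, 117 and 125 TPM in WT. All 9 knockout libraries lay below the lowest WT library, and the 3 knockout groups overlapped each other as deposited. The log2 fold change of Hk2 was -0.58 in EgfrKO, -0.66 in Klf5KO and -0.68 in Smad4KO (SE 0.083 each), with limma adjusted p of 0.00021, 3.6e-05 and 3.9e-05. The knockout means of Hk2 were 66.3%, 63.0% and 62.0% of WT.

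Gpi1, glucose phosphate isomerase, which acts on the product of hexokinase (chromosome 7, 34201327 to 34230336), had 401, 389 and 374 TPM in EgfrKO, 365, 391 and 376 TPM in Klf5KO and 401, 431 and 408 TPM in Smad4KO, against 501, 544 and 559 TPM in WT. Its log2 fold changes were -0.46, -0.50 and -0.37 (SE 0.052), with limma adjusted p of 4.2e-05, 9.3e-06 and 0.00012. Gpi1 was the member with the smallest decrease in Smad4KO. Aldoa, the aldolase that splits fructose bisphosphate into trioses (chromosome 7, 126795234 to 126800994), averaged 1454 ± 50.9, 1372 ± 117 and 1465 ± 65.3 TPM in EgfrKO, Klf5KO and Smad4KO, against 1929 ± 106 TPM in WT (SD, n = 3 each). Its log2 fold changes were -0.41, -0.49 and -0.40 (limma adjusted p = 0.00053, 5.3e-05 and 0.0004). Tpi1, which interconverts the trioses (chromosome 6, 124810586 to 124814158), averaged 1057 ± 41.2, 1057 ± 63.3 and 1009.9 ± 28.4 TPM, against 1358 ± 49.2 TPM in WT. Its log2 fold changes were -0.36, -0.36 and -0.43 (limma adjusted p = 0.00025, 9.5e-05 and 4.1e-05). For both genes every knockout library lay below every WT library.

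The steps that recover ATP fell most for Pgk1. Gapdh, glyceraldehyde phosphate dehydrogenase (chromosome 6, 125161852 to 125166467), was the most abundant member and ranked 7 among all genes by mean TPM in WT. It had 6678, 6523 and 6495 TPM in EgfrKO, 5233, 6142 and 5649.8 TPM in Klf5KO and 5344, 5674 and 5526 TPM in Smad4KO, against 7499, 8056 and 8537 TPM in WT. No knockout library reached the lowest WT library, and the EgfrKO libraries lay above all Klf5KO and Smad4KO libraries. The log2 fold changes of Gapdh were -0.29, -0.50 and -0.54 (SE 0.065), with limma adjusted p of 0.0043, 4.5e-05 and 3.6e-05. After quantile normalization Gapdh was not called in EgfrKO, at -0.15 (adjusted p = 0.092), or in Klf5KO, where its direction turned, at 0.14 (adjusted p = 0.1).

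Pgk1, phosphoglycerate kinase, the first enzyme of the pathway to make ATP (chromosome X, 106187100 to 106203699), had 799, 759 and 745 TPM in EgfrKO, 697, 779 and 805 TPM in Klf5KO and 649, 718 and 673 TPM in Smad4KO, against 1012, 1136 and 1266 TPM in WT. The knockout libraries all lay below the WT libraries, which were spread more widely for Pgk1 than for any other member, with a coefficient of variation of 11.2%. The log2 fold changes of Pgk1 were -0.56, -0.58 and -0.74 (SE 0.079), with limma adjusted p of 0.00021, 6.9e-05 and 1.5e-05. In Smad4KO this was the largest decrease among the 10 enzymes, to 59.8% of the WT mean.

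Pgam1, phosphoglycerate mutase (chromosome 19, 41911871 to 41918665), had 759, 732 and 731 TPM in EgfrKO, 814, 921 and 891 TPM in Klf5KO and 642, 696 and 650.45 TPM in Smad4KO, against 962, 1018 and 1059 TPM in WT. The 4 groups did not overlap, and WT was the highest. Its log2 fold changes were -0.45, -0.21 and -0.61 (SE 0.055), with limma adjusted p of 7.5e-05, 0.0052 and 3.5e-06. With quantile normalization the Klf5KO call on Pgam1 was lost, at -0.10 (adjusted p = 0.055).

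Eno1, the enolase that makes phosphoenolpyruvate (chromosome 4, 150236708 to 150248879), was the member that differed most in pattern. It had 2261, 2166 and 2159.96 TPM in EgfrKO, 2598, 2769 and 2702 TPM in Klf5KO and 1688, 1799.7 and 1710.3 TPM in Smad4KO, against 2633, 2521 and 2612 TPM in WT. The Klf5KO and WT libraries overlapped, the EgfrKO libraries lay below both, and the Smad4KO libraries lay below all others. The log2 fold changes of Eno1 were -0.24 in EgfrKO (adjusted p = 0.0012), 0.06 in Klf5KO (adjusted p = 0.28) and -0.58 in Smad4KO (adjusted p = 8.6e-07), each with an SE of 0.044 by limma. The Klf5KO value depended on the scaling and was -0.30 after median-of-ratios scaling (adjusted p = 0.002), 0.37 after quantile normalization (adjusted p = 0.00016) and -0.06 without the ribosomal protein genes (adjusted p = 0.29).

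Pkm, pyruvate kinase, which makes pyruvate and the second ATP of these steps (chromosome 9, 59656576 to 59679372), averaged 1660.3 ± 66.5, 1671 ± 42.2 and 1551 ± 73.4 TPM in EgfrKO, Klf5KO and Smad4KO, against 2158 ± 112 TPM in WT. Its log2 fold changes were -0.38, -0.37 and -0.48 (limma adjusted p = 0.00019, 8.9e-05 and 1.8e-05). The gene-level values sum the M1 and M2 forms of Pkm, which differ by an exon and cannot be told apart here. Ldha, the lactate dehydrogenase subunit whose promoter is printed above (chromosome 7, 46842274 to 46855627), had 1358, 1319 and 1298 TPM in EgfrKO, 1264, 1361 and 1358 TPM in Klf5KO and 1137, 1245 and 1176 TPM in Smad4KO, against 1584, 1696 and 1779.6 TPM in WT. For both genes the knockout libraries lay below every WT library. The log2 fold changes of Ldha were -0.35, -0.34 and -0.51 (SE 0.054), with limma adjusted p of 0.0004, 0.00017 and 1.3e-05. After quantile normalization neither Pkm nor Ldha was called in Klf5KO, with log2 fold changes of -0.01 each (adjusted p = 0.87 and 0.82).

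These are bulk RNA values, so fewer cells that transcribe a gene and less of its RNA per cell cannot be told apart. Processed copies of several members exist in the mouse genome, and their likeness in sequence to the members was not measured here. Of 8 copies looked for, 5 were in the table, Eno1b, Aldoart1, Aldoart2, Ldhal6b and Gm12070, and the most abundant was Gm12070 at 2.42 to 4.59 TPM over the 12 libraries. Of the 2 tested, Eno1b was not called against WT and Gm12070 was lower in Klf5KO, at -0.35 (limma adjusted p = 0.04). How reads shared with such copies were split by the authors' quantification was not tested.

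The order of levels was nearly the same in every genotype. In each group Gapdh was the highest, followed by Eno1, Pkm, Aldoa, Ldha and Tpi1, and Gpi1 and Hk2 were the lowest. Gapdh averaged 86.4, 78.6 and 77.5 times the level of Hk2 in EgfrKO, Klf5KO and Smad4KO, and 70.1 times in WT, by TPM, which allows for length. Pgk1 and Pgam1 were neighbours whose libraries overlapped in EgfrKO, Smad4KO and WT. In Klf5KO all Pgam1 values lay above all Pgk1 values, at 814 to 921 against 697 to 805 TPM. Neighbours also overlapped for Aldoa and Ldha in Klf5KO and for Pkm and Aldoa in Smad4KO.

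Across the 12 libraries Eno1 departed most from the average profile of the enzymes. Each member's log2(TPM + 1) was centred on its own mean over the libraries and compared with the average of the 10 centred profiles. That average contains the member itself, which makes its distance smaller. The root mean square distance from that average was smallest for Ldha, at 0.026, followed by Pkm at 0.040 and Tpi1 at 0.045, and was largest for Eno1, at 0.20. The other 6 lay between 0.083 and 0.103. The 8 closest genes outside the pathway, picked for their likeness, lay at 0.058 to 0.081. That was farther than Ldha, Pkm and Tpi1 and nearer than the rest of the members, so these distances do not set all 10 enzymes apart. Coefficients of variation within a group ran from 1.5% to 6.87% in EgfrKO, 2.53% to 8.56% in Klf5KO, 2.81% to 7.34% in Smad4KO and 2.31% to 11.2% in WT.

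A value that a scaling factor per library cannot change is the level of an enzyme relative to the other 9 in the same library. For Eno1 this relative level, log2 TPM minus the mean log2 TPM of the others, was 1.28 to 1.31 in EgfrKO, 1.59 to 1.64 in Klf5KO and 1.04 to 1.07 in Smad4KO, against 1.03 to 1.23 in WT. The Klf5KO libraries lay above all others, by 0.50 in their mean over WT, and EgfrKO lay above WT by 0.19. Within WT, replicate 1 stood apart at 1.23, beside 1.05 and 1.03 in the other two, and it was also the WT library where Eno1 was highest while the other 9 enzymes were lowest. Pgam1 had relative levels of -0.47 to -0.43 in EgfrKO, -0.22 to -0.18 in Klf5KO and -0.50 to -0.48 in Smad4KO, against -0.42 to -0.39 in WT. It too was highest in Klf5KO, by 0.21 over WT, so the neighbouring steps of mutase and enolase both took a larger share of the enzymes there. Eno1 made up 16.6% to 17.4% of the summed TPM of the 10 enzymes in Klf5KO, against 12.1% to 13.5% in WT. Hk2 had a lower relative level in each knockout label than in WT, by 0.20 in EgfrKO, 0.30 in Klf5KO and 0.17 in Smad4KO, and so did Pgk1, by 0.17, 0.20 and 0.23. Relative levels of Gpi1, Aldoa and Tpi1 in Smad4KO lay above WT, by 0.18, 0.15 and 0.12, and that of Gapdh in EgfrKO by 0.13. In Klf5KO those of Gpi1, Aldoa and Gapdh differed from WT by -0.12, -0.11 and -0.12. These differences are descriptions, and no test was made of them.

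**Figure D3:**
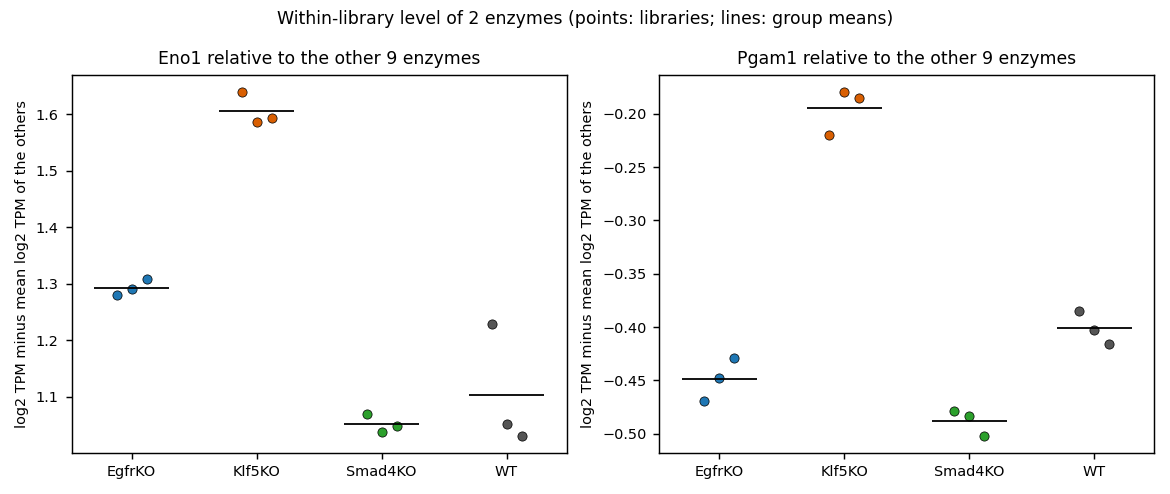
Level of Eno1 (left) and Pgam1 (right) relative to the other 9 enzymes in the same library, as log2 TPM minus the mean log2 TPM of the others; points are libraries and lines are group means, and the axes do not start at 0. In both panels the 3 Klf5KO libraries lie above all other libraries.

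Direct comparisons between knockout labels set their means side by side, with the WT libraries entering only the estimate of the spread. In EgfrKO against Klf5KO, 2 enzymes were lower and 1 was higher, where 40.5% and 14.7% of all genes tested were called lower and higher. Eno1 was lower by -0.29 (SE 0.044, adjusted p = 0.00017) and Pgam1 by -0.24 (SE 0.055, adjusted p = 0.0032), while Gapdh was higher by 0.21 (SE 0.065, adjusted p = 0.016), all by limma on the log2(TPM + 1) scale. These calls rested on the scaling, since after median-of-ratios scaling none was lower and 7 were higher, among them Hk2 by 0.28, Gpi1 by 0.25, Aldoa by 0.29 and Tpi1 by 0.21 (adjusted p = 0.015, 0.0054, 0.014 and 0.026). Eno1 and Pgam1 were then not called (adjusted p = 0.28 and 0.73). After quantile normalization 7 were lower and 1 was higher. The share of calls that were higher over all genes was 26.6% as deposited and 51.0% after median-of-ratios scaling. The Gapdh call was lost without Klf5KO replicate 1 (adjusted p = 0.052).

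In EgfrKO against Smad4KO, 4 enzymes were higher and 0 lower, also 0 lower at an unadjusted p under 0.05, where 18.7% of all genes were called higher and 14.5% lower by limma. Eno1 was higher by 0.34 (adjusted p = 0.00013), Gapdh by 0.25 (adjusted p = 0.011), Ldha by 0.16 (adjusted p = 0.039) and Pgam1 by 0.16 (adjusted p = 0.043). After median-of-ratios scaling only Eno1 remained called, at 0.30 (adjusted p = 0.0038). Of all calls 56.4% were higher as deposited and 45.8% after that scaling. The calls on Pgam1 and Ldha held without Smad4KO replicate 2 and were lost without any 1 of the other 5 libraries, with adjusted p up to 0.13 and 0.14. Fitted on these 2 groups alone, 5 were higher, with Pgk1 added at 0.18 (adjusted p = 0.033).

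In Klf5KO against Smad4KO, 3 enzymes were higher and 1 was lower, where 45.5% of all genes were called higher and 18.3% lower. Eno1 was higher by 0.63 (SE 0.044, adjusted p = 2.4e-07), Pgam1 by 0.40 (adjusted p = 6e-05) and Ldha by 0.16 (adjusted p = 0.02), and Gpi1 was lower by -0.13 (adjusted p = 0.042), by limma. After median-of-ratios scaling Eno1 stayed higher, at 0.38 (adjusted p = 0.00029), Pgam1 was not called at 0.15 (adjusted p = 0.098), and Hk2, Gpi1, Aldoa and Tpi1 were called lower. The Gpi1 call was lost without Klf5KO replicate 1 or 3 or Smad4KO replicate 2 or 3, with adjusted p up to 0.14, and also when these 2 groups were fitted alone (adjusted p = 0.061). The Ldha call was lost without Klf5KO replicate 2 or 3 or Smad4KO replicate 1 or 3, with adjusted p up to 0.078. Of all calls 71.2% were higher as deposited and 48.2% after scaling. Eno1 was thus the member whose difference between Smad4KO and the other 2 knockout labels was called both with and without scaling.

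Genes around the pathway did not move as a block. They were taken from lists of pathway genes, and the genes described or plotted are among the up to 4 per list with the largest mean change against WT. The counts stand beside the background shares of calls given above, and the scaled counts beside the scaled calls over all genes given there. Of 18 other isozymes and phosphofructokinase genes, 15 were tested; 2 were lower and 4 higher in EgfrKO, 5 lower and 7 higher in Klf5KO, and 3 lower and 5 higher in Smad4KO. After median-of-ratios scaling these counts were 2 and 3, 7 and 2, and 4 and 4. Pklr, the pyruvate kinase of liver and red cells, was 16.3 to 17.5 TPM in EgfrKO, 10.5 to 13.6 in Klf5KO and 19.6 to 20.3 in Smad4KO, against 6.81 to 8.16 TPM in WT. It rose by 1.06, 0.64 and 1.31 (limma adjusted p = 6.4e-06, 0.0001 and 5.4e-07), the opposite direction to Pkm, and stayed called after scaling.

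Hkdc1, a hexokinase-like gene, ranged from 5.36 to 7.31 TPM in EgfrKO, 0.188 to 0.272 in Klf5KO and 13.3 to 14.8 in Smad4KO, against 3.88 to 6.72 TPM in WT. It fell by -2.34 in Klf5KO (adjusted p = 4.6e-07) and rose by 1.25 in Smad4KO (adjusted p = 4.5e-05), and was not called in EgfrKO (adjusted p = 0.35), by limma. Eno3, the muscle enolase, was 83.1 to 85.8 TPM in EgfrKO, 109.5 to 132 in Klf5KO and 44.7 to 51.8 in Smad4KO, against 81.1 to 86.0 TPM in WT. As with Eno1, the highest Eno3 values were in Klf5KO and the lowest in Smad4KO, with log2 fold changes of 0.01 (adjusted p = 0.91), 0.49 (adjusted p = 9.6e-05) and -0.82 (adjusted p = 2.8e-06) by limma. The Klf5KO call on Eno3 was lost after scaling, at 0.14 (adjusted p = 0.14). Aldoc, the brain aldolase, fell by -0.64 in Klf5KO (limma adjusted p = 2.8e-05) and was not called in EgfrKO, at 0.18 (adjusted p = 0.083). In Smad4KO it rose by 0.23 (adjusted p = 0.031), a call lost after scaling (adjusted p = 0.21).

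Hk1 and the 3 phosphofructokinase genes were added after their values were seen. Hk1, the housekeeping hexokinase, averaged 96.3 ± 6.30 TPM in EgfrKO, 111 ± 5.23 in Klf5KO and 86.0 ± 3.48 in Smad4KO, against 86.0 ± 5.67 TPM in WT (SD, n = 3 each). It rose in Klf5KO by 0.36 (limma adjusted p = 0.00043), a call lost after scaling (adjusted p = 0.91). The ratio of Hk2 to Hk1, which a scaling factor per library does not change, was 0.773 to 0.798 in EgfrKO, 0.594 to 0.713 in Klf5KO and 0.808 to 0.857 in Smad4KO, against 1.28 to 1.41 in WT. Hk2 was therefore the more abundant of the 2 transcripts in each WT library and the less abundant in each knockout library. Pfkl, the liver phosphofructokinase subunit, averaged 100.3, 110.3 and 112 TPM in EgfrKO, Klf5KO and Smad4KO, against 126 TPM in WT, and fell by -0.33, -0.20 and -0.17 (limma adjusted p = 0.0021, 0.02 and 0.047). Pfkp, the platelet subunit, fell in EgfrKO, by -0.40 (adjusted p = 0.0027), and was not called in Klf5KO, at -0.05, or Smad4KO, at 0.16, though it was lower in Klf5KO after scaling, at -0.40 (adjusted p = 0.0025). Pfkm, the muscle subunit, rose in Smad4KO, by 0.48 (adjusted p = 0.00054), and in EgfrKO, by 0.28 (adjusted p = 0.019), the second of which was not called after scaling (adjusted p = 0.11). In Klf5KO Pfkm stood at 0.04, and scaling made it lower, at -0.30 (adjusted p = 0.0017).

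Among transport genes and phosphofructokinase regulators, Slc2a1 and Pfkfb3 fell more than any of the 10 enzymes in all 3 comparisons, while others rose. Median log2 fold changes were -0.03, 0.03 and 0.01 over the transport genes and 0.33, 0.27 and -0.13 over the regulators, in EgfrKO, Klf5KO and Smad4KO. Of the 7 tested genes of glucose and lactate transport, 2, 3 and 2 were lower and 2, 2 and 2 higher in EgfrKO, Klf5KO and Smad4KO, and scaling changed the counts to 3, 4 and 2 lower and 2, 1 and 2 higher. Slc2a1, the glucose transporter GLUT1, was 172 to 196 TPM in EgfrKO, 174 to 231 in Klf5KO and 166 to 182 in Smad4KO, against 355 to 413 TPM in WT. It fell by -1.0, -0.92 and -1.10 (SE 0.098; limma adjusted p = 1.5e-05, 1.1e-05 and 3.1e-06), more than any of the 10 enzymes. Slc16a3, the lactate exporter MCT4, was 24.7 to 27.7 TPM in EgfrKO, 59.3 to 70.0 in Klf5KO and 23.8 to 27.0 in Smad4KO, against 98.0 to 114 TPM in WT. Its log2 fold changes were -1.97, -0.66 and -1.97 (SE 0.083; limma adjusted p = 1.6e-07, 3.7e-05 and 1.7e-08). Slc16a1, the related carrier MCT1, was added after its values were seen, averaged 52.5, 54.8 and 55.4 TPM against 53.7 TPM in WT, and was not called as deposited (adjusted p = 0.74, 0.72 and 0.65), though it was lower in Klf5KO after scaling, at -0.32 (adjusted p = 0.0022). The ratio of Slc16a1 to Slc16a3 was 1.99 to 2.05 in EgfrKO, 0.777 to 0.908 in Klf5KO and 1.90 to 2.30 in Smad4KO, against 0.443 to 0.577 in WT. Bsg, the chaperone of both carriers, fell in Klf5KO by -0.56 (adjusted p = 4e-05) and was not called in EgfrKO, at -0.12 (adjusted p = 0.18), or Smad4KO, at 0.01 (adjusted p = 0.9), but was called lower in EgfrKO after scaling, at -0.28 (adjusted p = 0.033).

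Among 5 regulators of phosphofructokinase, 1, 1 and 2 were lower and 2, 3 and 2 higher in EgfrKO, Klf5KO and Smad4KO, and 1, 1 and 2 lower and 2, 1 and 1 higher after scaling. Pfkfb3, which makes a fructose bisphosphate that activates phosphofructokinase, was 15.3 to 17.9 TPM in EgfrKO, 12.2 to 19.2 in Klf5KO and 18.1 to 19.6 in Smad4KO, against 36.5 to 43.7 TPM in WT. It fell by -1.21, -1.36 and -1.04 (SE 0.13; limma adjusted p = 3.2e-05, 5.8e-06 and 5.2e-05). Tigar, a phosphatase that breaks that activator down, was 7.97 to 8.53 TPM in EgfrKO, 7.74 to 9.65 in Klf5KO and 5.35 to 6.42 in Smad4KO, against 4.01 to 4.89 TPM in WT. It rose by 0.73, 0.79 and 0.32 (limma adjusted p = 0.0002, 4.2e-05 and 0.022), and the Smad4KO call was lost after scaling (adjusted p = 0.08).

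**Figure D4:**
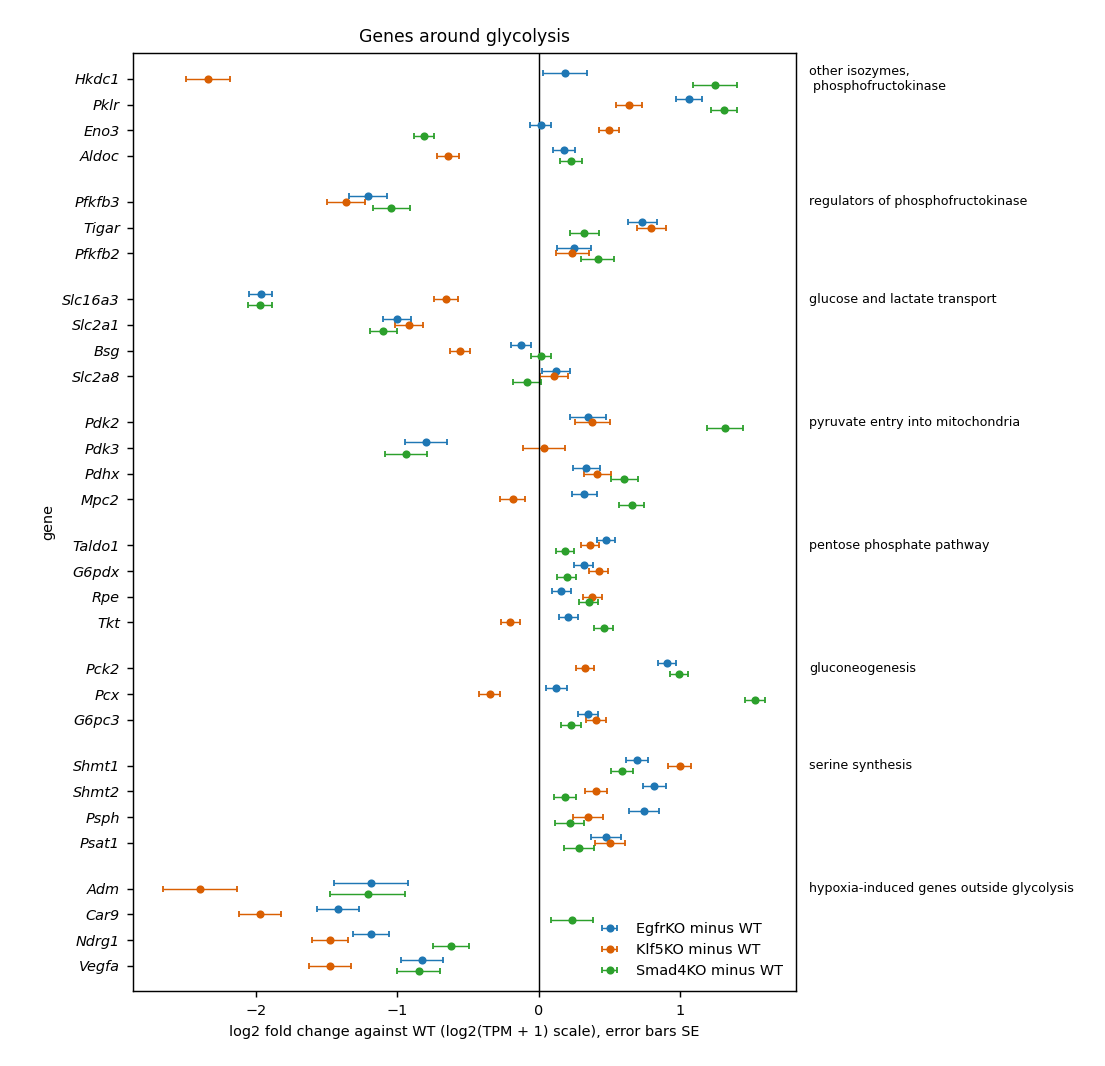
Log2 fold change against WT (log2(TPM + 1) scale, points with SE bars, 3 libraries a group) of genes around glycolysis, grouped by list. Slc2a1, Pfkfb3, Ndrg1 and Vegfa lie below 0 in all 3 comparisons, and Pklr and the plotted genes of the serine synthesis list above 0. Hkdc1, Eno3 and Car9 differ between the knockout labels.

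Branches from glycolysis to other products are given list by list, and an excess of increases as deposited was also seen over all genes tested. The serine synthesis list also holds Shmt1 and Shmt2, which pass carbon from serine to folate. All 5 of its genes rose in EgfrKO and in Klf5KO and 3 rose in Smad4KO. In each comparison 0 were lower, also at an unadjusted p under 0.05 by limma. After scaling 5, 1 and 1 were called higher, and the 1 in Klf5KO and in Smad4KO was Shmt1, not a gene that makes serine. Shmt1, which passes carbon from serine to folate, was 26.6 to 30.3 TPM in EgfrKO, 30.9 to 37.4 in Klf5KO and 25.9 to 26.3 in Smad4KO, against 16.1 to 18.1 TPM in WT, and was the member called under both scalings in all 3 comparisons. Shmt2, its mitochondrial counterpart, rose in EgfrKO by 0.82 (limma adjusted p = 1.2e-05), and Psph, the last enzyme of serine synthesis, by 0.75 (adjusted p = 0.00021). Of 7 pentose phosphate genes 0, 1 and 0 were lower and 4, 4 and 5 higher, and 1, 2 and 0 lower and 2, 0 and 3 higher after scaling. No further member was lower in EgfrKO or Smad4KO at an unadjusted p under 0.05 by limma. Tkt, transketolase, rose by 0.46 in Smad4KO (adjusted p = 0.00017) and fell by -0.20 in Klf5KO (adjusted p = 0.021), and both calls held after scaling. G6pdx, the first enzyme of that pathway, rose by 0.32 in EgfrKO (adjusted p = 0.0028), a call that held after scaling at 0.17 (adjusted p = 0.022). It also rose by 0.42 in Klf5KO and 0.20 in Smad4KO (limma adjusted p = 0.00018 and 0.029). Both of these calls were lost after scaling (adjusted p = 0.25 and 0.16).

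Of 4 tested gluconeogenesis genes 0, 2 and 0 were lower and 2, 2 and 4 higher, and after scaling 0, 2 and 0 lower and 1, 0 and 3 higher. None was lower in EgfrKO or Smad4KO at an unadjusted p under 0.05 by limma. Pck2, the mitochondrial phosphoenolpyruvate carboxykinase, rose by 0.91 in EgfrKO and 0.99 in Smad4KO (limma adjusted p = 1.5e-06 and 2.4e-07), and by 0.33 in Klf5KO (adjusted p = 0.00075), which became -0.01 after scaling (adjusted p = 0.85). Pcx, pyruvate carboxylase, was 8.12 to 8.94 TPM in EgfrKO, 5.69 to 5.92 in Klf5KO and 23.7 to 24.8 in Smad4KO, against 7.08 to 8.25 TPM in WT. Its rise of 1.53 in Smad4KO had an adjusted p of 3.2e-08 by limma. Of 12 tested genes of pyruvate entry into mitochondria 3, 2 and 2 were lower and 4, 8 and 7 higher, and 4, 6 and 3 lower and 1, 0 and 6 higher after scaling. Pdk2, a kinase that turns pyruvate dehydrogenase off, rose by 1.32 in Smad4KO (adjusted p = 5.5e-06), while Pdk3, another such kinase, fell by -0.94 there (adjusted p = 0.00028) and by -0.80 in EgfrKO (adjusted p = 0.0013). Hexosamine synthesis had 1, 1 and 1 lower and 0, 2 and 2 higher of 5, with 3, 3 and 1 lower and 0, 1 and 2 higher after scaling, and no further member higher in EgfrKO at an unadjusted p under 0.05. Gfpt1, its first enzyme, rose by 0.72 in Klf5KO and 0.84 in Smad4KO (adjusted p = 2.2e-05 and 8.8e-06) and stood at 0.01 in EgfrKO (adjusted p = 0.94). Glycogen metabolism had 1, 0 and 2 lower and 2, 4 and 2 higher of 7 tested, and 3, 3 and 2 lower and 2, 3 and 2 higher after scaling, with none lower in Klf5KO at an unadjusted p under 0.05. Ugp2, which makes UDP-glucose, rose in all 3 comparisons, by 0.51, 0.61 and 0.40 (limma adjusted p = 9.9e-05, 1.1e-05 and 0.00034).

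Genes induced by low oxygen outside glycolysis were, like the enzymes, mostly lower in each knockout label than in WT. Of 12 such genes, 10 fell in EgfrKO, 11 in Klf5KO and 9 in Smad4KO, with 0, 0 and 1 higher by limma and none further at an unadjusted p under 0.05 in EgfrKO and Klf5KO. Their median log2 fold changes were -0.70, -1.11 and -0.77, against 0.14, 0.31 and 0.10 over all genes. Their summed level was 1472 to 1592 TPM in EgfrKO, 982 to 1487 in Klf5KO and 1753 to 1877 in Smad4KO, against 2477 to 2946 TPM in WT. Among the knockout labels the order of this sum differed from that of the enzymes. The sum was highest in Smad4KO, where the enzymes took the smallest share of TPM, 1.38% to 1.48%. A sum is weighted toward abundant genes. By median change against WT the smallest decrease was in EgfrKO, at -0.70 beside -0.77 in Smad4KO. The median of the 12 genes in EgfrKO against Smad4KO was 0.02. Vegfa, the angiogenic growth factor, was 158 to 184, 86.1 to 144 and 163 to 181 TPM, against 280.1 to 351 TPM in WT, and fell by -0.83, -1.48 and -0.85 (limma adjusted p = 0.0011, 7.9e-06 and 0.0006). Car9, a carbonic anhydrase, fell by -1.42 in EgfrKO and -1.97 in Klf5KO (adjusted p = 2.3e-05 and 1.1e-06), and was 231 to 235 TPM in Smad4KO, against 190.2 to 212 TPM in WT, which did not pass the test (adjusted p = 0.21). Ndrg1, a stress-response gene, was 323 to 334, 215 to 333 and 469 to 521 TPM, against 672 to 837 TPM in WT. Adm, which encodes a vasodilator peptide, fell by -1.19, -2.40 and -1.21 (limma adjusted p = 0.004, 1.4e-05 and 0.0026). Egln3, an oxygen-sensing hydroxylase, fell by -1.07 in Klf5KO (adjusted p = 0.00013) and rose by 0.54 in Smad4KO (adjusted p = 0.016), the 1 increase on the list, a call lost after scaling (adjusted p = 0.062).

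Of 9 genes of HIF factors and their hydroxylases 2, 2 and 2 were lower and 1, 3 and 5 higher, and 4, 5 and 2 lower and 0, 1 and 4 higher after scaling. Hif1a, the oxygen-regulated HIF subunit, fell by -0.32 in EgfrKO and -0.62 in Smad4KO (limma adjusted p = 0.0058 and 4e-05) and was at 0.04 in Klf5KO (adjusted p = 0.67), where scaling made it -0.32 (adjusted p = 0.0027). Of 8 other factors known to act on glycolysis genes 1, 3 and 1 were lower and 0, 4 and 3 higher, and 2, 4 and 2 lower and 0, 1 and 3 higher after scaling. At an unadjusted p under 0.05, 1 of the 8 was higher in EgfrKO. Myc fell by -0.29 in EgfrKO and -0.45 in Klf5KO (limma adjusted p = 0.0049 and 0.00011) and was at -0.11 in Smad4KO (adjusted p = 0.21), where scaling made it -0.21 (adjusted p = 0.027). Mycn was 10.2 to 10.9 TPM in EgfrKO, 2.82 to 4.17 in Klf5KO and 18.1 to 23.3 in Smad4KO, against 8.29 to 9.55 TPM in WT, and fell by -1.13 in Klf5KO and rose by 1.13 in Smad4KO (adjusted p = 1.1e-05 and 1.3e-05).

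Other features differed between the same groups. A list of 12 immediate-early and stress genes, which rise when tissue is dissociated, was also summed. The sum was 2361 to 2539 TPM in EgfrKO, 1537 to 2407 in Klf5KO and 1931 to 2082 in Smad4KO, against 3739.7 to 4774 TPM in WT. Of its 12 members 10, 12 and 11 fell by limma, where 12%, 11.1% and 17.4% of all genes tested were called lower. WT replicate 3 was the highest WT library for 8 of 10 enzymes, for the hypoxia-induced sum and for the stress sum, and Klf5KO replicate 2 was the highest Klf5KO library for 8 enzymes and both sums. In EgfrKO replicate 1 was highest for all 10 enzymes and for the hypoxia-induced sum and replicate 2 for the stress sum. In Smad4KO replicate 2 was highest for all 10 enzymes and for the hypoxia-induced sum and had the lowest stress sum, 1931 TPM. After scaling the highest libraries were EgfrKO replicate 3 for 9 enzymes, Klf5KO replicate 2 for 8, Smad4KO replicate 3 for 6 and WT replicate 3 for all 10. Fibroblast genes summed to 136 to 146 TPM in EgfrKO, 336 to 699 in Klf5KO and 56.2 to 86.0 in Smad4KO, against 55.8 to 144 TPM in WT, and leukocyte genes to 175 to 183, 185 to 271 and 57.5 to 107 TPM, against 111 to 150.4 TPM in WT. As deposited, 31.3%, 55.2% and 32.2% of all genes tested were called higher in EgfrKO, Klf5KO and Smad4KO against WT, and 12%, 11.1% and 17.4% lower. In Klf5KO all 8 tested fibroblast genes and all 7 leukocyte genes were called higher than in WT. In EgfrKO 1 of 8 and 4 of 7 were higher and 1 and 1 lower, and in Smad4KO 0 and 0 were higher and 2 and 2 lower (limma). After median-of-ratios scaling 1, 5 and 0 fibroblast genes and 1, 1 and 0 leukocyte genes were higher in EgfrKO, Klf5KO and Smad4KO. Of 10 macrophage genes 1, 0 and 3 were lower and 0, 0 and 1 higher in EgfrKO, Klf5KO and Smad4KO. Smad4KO replicate 2 stood apart with the lowest macrophage sum, 416 TPM. Without that library all 10 glycolysis enzymes remained called lower in Smad4KO against WT. Ribosomal protein genes took 12.6% to 20.2% of a library's TPM and small RNA models 4.72% to 9.66%, and leaving out either class kept the counts of enzymes called against WT at 10, 9 and 10. The part of stress genes, other cell types and abundant RNAs in the lower enzyme levels was not tested.

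**Figure D5:**
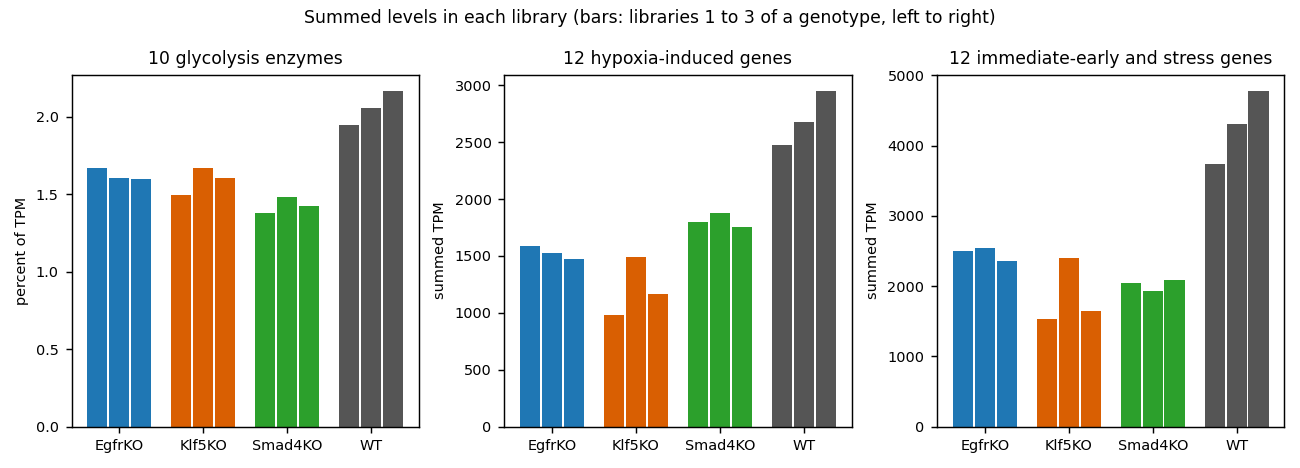
Share of TPM taken by the 10 glycolysis enzymes (left), and summed TPM of 12 hypoxia-induced genes (middle) and 12 immediate-early and stress genes (right), 1 bar per library, 3 libraries a genotype. In each panel the WT libraries lie above all knockout libraries, and in each the highest WT library is replicate 3.

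The genes outside the pathway whose profile was most like the average enzyme were found among 9828 named genes with a mean of at least 5 TPM, by the root mean square difference of centred log2(TPM + 1) over the 12 libraries. The 8 closest were Ugdh, Cd9, Eaf1, Map2k1, Cyth2, Ypel5, Ppp1r13l and Gprc5a, at 0.058 to 0.081, where the median over all compared genes was 0.36. Ugdh, which makes UDP-glucuronate from UDP-glucose, was 202 to 221 TPM in EgfrKO, 219 to 233 in Klf5KO and 192 to 212 in Smad4KO, against 271 to 300.3 TPM in WT. Cd9, a tetraspanin, was 952 to 978, 942 to 1187 and 892 to 942 TPM, against 1294 to 1372 TPM in WT. Map2k1, the kinase MEK1 of the ERK pathway, was 138 to 145, 119 to 151 and 113 to 128 TPM, against 169 to 179 TPM in WT. For each of these 3 genes all knockout libraries lay below all WT libraries, which the choice by likeness fixes in part, so no test is given.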

How the data were processed

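RNA sequencing of 12 libraries, 3 per genotype label, was used. The deposited values are TPM, in a single table with a row for each symbol. Salmon and mm10 are named in the submitters' processing notes. The Salmon version, annotation and gene summing were not given in the sources used here. Columns were matched to samples by title. Values were transformed to log2(TPM + 1). A filter of TPM 1 or more in 3 or more libraries left 13662 genes, which were fitted with limma 3.58.1 in R 4.3.3, with 4 group means over all 12 libraries and eBayes with a trend. Tests were two-sided, with Benjamini-Hochberg adjustment over all genes within each of 6 contrasts and a threshold of 0.05. The fit was tested on simulated data.

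Median-of-ratios factors came from genes above 0 in every library. Other alternatives were quantile normalization, filters, a pseudocount of 0.1, leaving out abundant classes, fits without a trend or of the 2 groups alone, a replicate block and leaving out each library. Coordinates, promoters and their sequences are from RefSeq on GRCm38.p6, where all 10 members matched. Where a gene has several starts, the window with most matches was used, for all genes alike. Named are all members, the targeted genes, up to 4 genes per list with a mean of at least 5 TPM and the largest mean absolute change against WT, and the 8 genes most like the members. Hk1, Pfkl, Pfkp, Pfkm, Slc16a1, the copies of members and the marker genes given by name fall outside this rule and were chosen after their values were seen. The members and lists were chosen with earlier results of these data known.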

Additional observations from a re-analysis of the deposited data

Results flagged for a closer look

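Eno1 differed between knockout labels. It was lower than WT in EgfrKO and Smad4KO, while in Klf5KO its difference of 0.06 did not pass the test (limma adjusted p = 0.28) and became -0.30 after median-of-ratios scaling (adjusted p = 0.002). As deposited, the direct contrasts were called by limma, at -0.29 on the log2(TPM + 1) scale for EgfrKO against Klf5KO (adjusted p = 0.00017) and 0.63 for Klf5KO against Smad4KO (adjusted p = 2.4e-07). The means were 2195 TPM in EgfrKO, 2689.9 TPM in Klf5KO and 1733 TPM in Smad4KO, against 2589 TPM in WT. After median-of-ratios scaling the first contrast was not called, at -0.09 (adjusted p = 0.28), and the second was, at 0.38 (adjusted p = 0.00029).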

How the results depend on the processing

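Against WT, the counts of enzymes called, 10 in EgfrKO, 9 in Klf5KO and 10 in Smad4KO, kept their direction without each library in turn. Quantile normalization called 5 lower and 1 higher in Klf5KO, where Gapdh reversed to 0.14 (adjusted p = 0.1), and lost Gapdh in EgfrKO, at -0.15 (adjusted p = 0.092). Median-of-ratios scaling reversed Eno1 in Klf5KO, to -0.30.

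Counts between knockout labels depended on the scaling. For EgfrKO against Klf5KO, median-of-ratios scaling called 7, 0 lower and 7 higher, with Pkm reversed to 0.20 and Ldha to 0.20, and quantile normalization called 8, 7 lower, with Aldoa, Tpi1 and Gapdh reversed to -0.26, -0.30 and -0.28. Without ribosomal protein genes 1 was lower and 3 higher, and with no filter 0 were higher. For EgfrKO against Smad4KO, 1 was called, higher, with median-of-ratios scaling and with no filter, and 2 with no trend and without small RNA models. For Klf5KO against Smad4KO, median-of-ratios scaling called 4 lower and 1 higher, with Hk2, Tpi1 and Ldha reversed to -0.23, -0.19 and -0.088. Quantile normalization called 8, 7 of them higher, with Aldoa reversed to 0.27. There 0 were lower with no filter, no trend or only the 2 groups, and 2 without ribosomal protein genes. Leaving out each library gave 2 to 3 called, 2 lower and 0 to 1 higher, for EgfrKO against Klf5KO. It gave 2 to 4, all higher, for EgfrKO against Smad4KO, and 2 to 4, with 0 to 2 lower and 2 to 4 higher, for Klf5KO against Smad4KO. The cause of these shifts was not tested.

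A replicate block left the counts of enzymes called at 10, 9, 10, 3, 4 and 4 in the 6 contrasts. Same-numbered libraries did not deviate together, with 18 correlations of -0.15 to 0.12, 1 of them over 0.1, so the numbers were not read as a pairing. TPM hold no depth, so the counting error of a value is unknown.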
